A study of Mus musculus with 9 samples.

Results

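Genes for secreted Wnt antagonists and for the release of Wnt proteins were followed in embryonic mouse cortex of 3 genotypes. The members were 10 genes taken by symbol, namely *Sfrp1*, *Sfrp2*, *Frzb*, *Dkk3*, *Wif1*, *Porcn*, *Wls*, *Notum*, *Rspo3* and *Draxin*, and 7 of them were among the 14670 genes of the expression table. *Frzb*, *Wif1* and *Notum* were not listed and were not analysed here. The 7 listed genes all passed the filter on low values, set at 0.5 CPM on average.

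RNA from microdissected cortex at embryonic day 16.5 was sequenced in 9 libraries, 3 of each genotype. The labels name *Fzd3* -/- mutants, *Celsr3* -/- mutants and wild-type controls, whereas the methods describe the controls as littermates that were either heterozygous or wild type, all on a mixed C57Bl/6 and CD1 background. *Fzd3* encodes a Frizzled receptor and *Celsr3* a large atypical cadherin, and both act in planar cell polarity and axon guidance. Values are CPM as deposited, already scaled between libraries. Control and *Fzd3* mutant libraries carry the numbers 1, 2 and 3, and *Celsr3* mutant libraries 1, 2 and 4. Every value was a whole multiple, within 0.01 of a step, of 1 step per library, between 0.0142 and 0.0251 CPM. Taken as 1 read, the step gives 52266343, 61637621 and 39857305 reads in the controls, 42963627, 45848829 and 52249430 in the *Fzd3* mutants, and 60333846, 54974978 and 69600589 in the *Celsr3* mutants. The methods give 3 cortical samples per genotype and say that animal experiments used 3 or more animals, but the labels do not name the embryo of each library, so p-values measure the spread between these samples.

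Wnt proteins are lipid-modified in the endoplasmic reticulum by the acyltransferase Porcn and carried to the cell surface by the transmembrane protein Wls. Outside the cell, Sfrp proteins and Wif1 bind Wnts directly, the deacylase Notum removes their lipid, and classical Dkk proteins and Draxin act through the Lrp5 and Lrp6 co-receptors. R-spondins work the other way: Rspo3 binds Lgr receptors and the E3 ligases Znrf3 and Rnf43 and so keeps Frizzled receptors at the membrane. *Rspo3* is therefore an enhancer of Wnt signalling rather than an antagonist, and Dkk3 is an atypical member of its family whose effect on Wnt signalling is debated. In the embryonic forebrain Sfrp1 and Sfrp2 are made by progenitors of the ventricular zone, and Draxin is also known as a repulsive axon guidance cue.

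The mutated genes were read first. *Celsr3* stood at 196, 243 and 214 CPM in the controls, 253, 213 and 255 CPM in the *Fzd3* mutants and 122, 139 and 118 CPM in the *Celsr3* mutants. The *Celsr3* mutant libraries were below every other library, with a log2 fold change of -0.78 against control (SE 0.0910, limma adjusted p = 0.00180). *Fzd3* stood at 58.0, 67.7 and 46.9 CPM in the controls, 46.5, 39.8 and 59.6 CPM in the *Fzd3* mutants and 52.1, 61.1 and 54.8 CPM in the *Celsr3* mutants. The groups overlapped for *Fzd3*, with a log2 fold change of -0.24 in *Fzd3* mutants against control (SE 0.147, limma adjusted p = 0.240). The methods place the deletion of the *Fzd3* allele in exon 3, and a value for the whole gene also counts reads outside the deleted part, so it does not check the *Fzd3* labels.

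Markers of cortex were present in every library: all 8 genes of a pallial list were in the table, with a sum of 2512 to 2804 CPM in the controls, 2589 to 2634 in the *Fzd3* mutants and 2754 to 2845 in the *Celsr3* mutants. *Neurod6*, a transcription factor of cortical projection neurons, was its most abundant gene and fell by 0.22 on the log2 scale in *Fzd3* mutants against control (limma adjusted p = 0.00151). Of 6 choroid plexus markers, 0 were in the table. *Celsr3* mutant library 4 stood apart in markers of the meninges, of which 6 of 10 were in the table (*Lum*, *Foxc2*, *Aldh1a2* and *Slc6a13* were not). Their sum was 34, 38.9 and 33.8 CPM in the controls, 52.8, 45.2 and 42.9 CPM in the *Fzd3* mutants, and 41.0, 37.3 and 219 CPM in the *Celsr3* mutants. The most abundant of them over all libraries was the chemokine gene *Cxcl12*, while the collagen gene *Col3a1* reached 87.6 CPM in that library against 2.61 to 6.86 CPM in the others. Some results for *Celsr3* mutants are therefore also given without library 4, where stated.

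Against control, *Fzd3* mutant cortex had less *Sfrp1*, more *Sfrp2* and about double the *Dkk3*, while *Porcn* and *Draxin* differed little. limma called 3 of the 7 listed genes at an adjusted p under 0.05, 2 higher and 1 lower. Over all genes tested in that comparison 29.8% were called, 15% higher and 14.8% lower, so the count of 3 is read against a background in which many genes changed. For *Celsr3* mutants against control limma called 0 of the 7, where 0.307% of all genes were called, and 0 of the 7 had an unadjusted p under 0.05, beside 800 of all 14670 genes. limma voom on reads recovered from the steps also called 0 of the 7 in *Celsr3* mutants, and its calls over all genes are not given here. The median absolute log2 fold change of the 7 genes was 0.361 in *Fzd3* mutants against 0.145 over all genes, and 0.0526 in *Celsr3* mutants against 0.0549. Both comparisons use the same control libraries, so their values are given side by side and the mutants are compared directly further on.

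**Figure D1:**
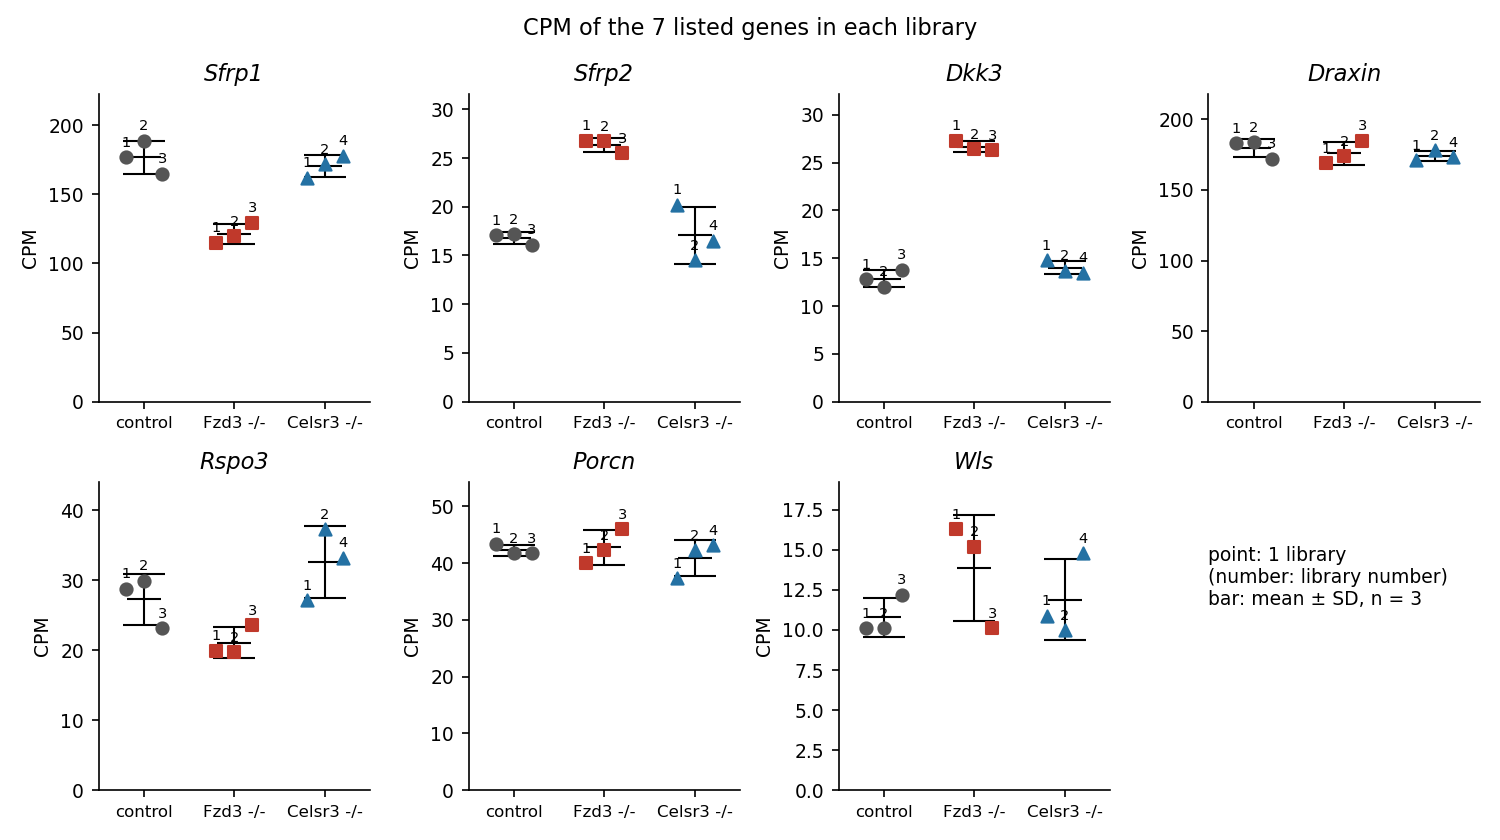
CPM of each listed gene in each library, by genotype, with library numbers beside the points and bars for the mean ± SD (n = 3). The *Fzd3* mutant libraries lie below all others for *Sfrp1*, between 115 and 129.5 CPM, and above all others for *Sfrp2* and *Dkk3*, while the genotypes overlap for *Draxin* and *Porcn*.

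*Sfrp1*, on chr8:23411502-23449632 (GRCm38, plus strand, 3 exons), was the most abundant of the secreted Wnt binders. Its level was 177, 189 and 165 CPM in the controls, 115, 119.6 and 129.5 CPM in the *Fzd3* mutants and 162, 172 and 178 CPM in the *Celsr3* mutants. All 3 *Fzd3* mutant libraries were below all 6 others, and the *Celsr3* mutants overlapped the controls. *Sfrp1* fell by 0.54 on the log2 scale in *Fzd3* mutants (SE 0.0609, limma adjusted p = 1.30e-04), to a fold of 0.686 (95% interval 0.626 to 0.753). In *Celsr3* mutants the log2 fold change was -0.05 (95% interval -0.19 to 0.08), and -0.08 without library 4. Of all 14670 genes, 3.67% had a lower log2 fold change in *Fzd3* mutants. In bulk tissue, fewer cells that express a gene and less RNA per cell cannot be told apart.

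*Sfrp2*, on chr3:83766321-83774316 (GRCm38, plus strand, 3 exons), encodes another secreted Frizzled-related protein and moved the opposite way. It stood at 17.1, 17.2 and 16.1 CPM in the controls, 26.8, 26.7 and 25.5 CPM in the *Fzd3* mutants and 20.2, 14.5 and 16.5 CPM in the *Celsr3* mutants. The *Fzd3* mutants were above all other libraries, and *Celsr3* mutant library 1 was the highest of the rest. *Sfrp2* rose by 0.64 on the log2 scale in *Fzd3* mutants (SE 0.10, limma adjusted p = 9.83e-04), a fold of 1.55 (95% interval 1.33 to 1.81). In *Celsr3* mutants the log2 fold change was 0.01 (95% interval -0.21 to 0.23), 0.03 without library 4 and -0.11 without library 1. The gene *Gm26771* lies antisense to *Sfrp2*, and the use of strand in counting is not given in the sources used here, so reads of the pair cannot be told apart. *Gm26771*, looked at for its position, had 2.08 to 3.47 CPM in the controls and 4.17 to 4.95 CPM in the *Fzd3* mutants, and rose by 0.62 on the log2 scale (limma adjusted p = 0.0316).

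Among the listed genes, *Sfrp2*, *Wls* and *Draxin* had an entry in the RefSeq promoter table (GRCm38.p6), and *Sfrp1*, *Dkk3*, *Rspo3* and *Porcn* had none. The 250 bases before the start of *Sfrp2*, which rose in *Fzd3* mutants, and of *Draxin*, which was not called in any comparison, are printed to show a pair of promoters with unlike outcomes. Capitals mark CpG, a C followed by a G. The *Sfrp2* sequence is chr3:83766071-83766320 on the plus strand, and the *Draxin* sequence is chr4:148130699-148130948 read on the minus strand.
Sfrp2: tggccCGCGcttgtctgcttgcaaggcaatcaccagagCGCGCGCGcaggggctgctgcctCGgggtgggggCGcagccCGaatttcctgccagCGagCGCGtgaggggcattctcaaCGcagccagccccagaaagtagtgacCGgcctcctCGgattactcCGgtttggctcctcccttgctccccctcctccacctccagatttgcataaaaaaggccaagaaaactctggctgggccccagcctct
Draxin: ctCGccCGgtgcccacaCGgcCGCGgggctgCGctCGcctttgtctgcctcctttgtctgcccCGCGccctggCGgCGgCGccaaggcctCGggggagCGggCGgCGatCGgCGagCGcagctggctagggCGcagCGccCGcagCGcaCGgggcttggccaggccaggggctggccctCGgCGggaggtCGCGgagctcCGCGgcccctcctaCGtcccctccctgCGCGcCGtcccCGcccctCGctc
The *Sfrp2* stretch holds 16 CpG and the *Draxin* stretch 36, where the median of 32851 promoters of this length was 6, and 74.6% and 97.4% of promoters hold fewer. A TCF/LEF motif, the letters CTTTG followed by A or T and again by A or T, was searched on both strands and found in 0 of the 3 listed promoters. At least 1 match was found in 14.8% of all promoters. Their absence says only that these letters are not in these windows.

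Because *Sfrp1* fell and *Sfrp2* rose, the balance of the pair shifted. Per kb of exon, the ratio of *Sfrp1* to *Sfrp2* was 5.11, 5.42 and 5.06 in the controls, 2.11, 2.20 and 2.5 in the *Fzd3* mutants and 3.95, 5.82 and 5.30 in the *Celsr3* mutants. The ratio was lower in every *Fzd3* mutant library than in any other library. The sum of the pair was 48.3 ± 3.04 CPM per kb in the controls, 40 ± 1.39 in the *Fzd3* mutants and 47.0 ± 1.29 in the *Celsr3* mutants (SD, n = 3). This ratio and sum were formed after the values of both genes were seen and are a description. An exact permutation test of 3 against 3 libraries was computed for them, but its smallest two-sided p is 0.10, so it could not pass the threshold.

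*Dkk3*, on chr7:112116017-112159057 (GRCm38, minus strand, 8 exons), encodes a secreted glycoprotein and had the largest change of the listed genes. Its level was 12.8, 12.0 and 13.8 CPM in the controls, 27.3, 26.4 and 26.3 CPM in the *Fzd3* mutants and 14.8, 13.7 and 13.5 CPM in the *Celsr3* mutants. The *Fzd3* mutant libraries lay close together and far above the other 6. *Dkk3* rose by 1.03 on the log2 scale in *Fzd3* mutants (SE 0.0729, limma adjusted p = 5.56e-06), a fold of 2.03 (95% interval 1.82 to 2.27). Of all genes tested, 1.68% had a higher log2 fold change, and 49 had a smaller adjusted p. In *Celsr3* mutants the log2 fold change was 0.12 (95% interval -0.04 to 0.28), and 0.14 without library 4.

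*Draxin*, on chr4:148098437-148130698 (GRCm38, minus strand, 7 exons), was not called in any comparison. Its level was 183, 184 and 172 CPM in the controls, 169, 174 and 185 CPM in the *Fzd3* mutants and 171, 178 and 173 CPM in the *Celsr3* mutants, and all groups overlapped. The log2 fold change was -0.03 in *Fzd3* mutants (95% interval -0.13 to 0.07) and -0.05 in *Celsr3* mutants (95% interval -0.14 to 0.05). These intervals bound any change within 0.905- to 1.05-fold in both comparisons. *Mad2l2* overlaps *Draxin* on the opposite strand, and its log2 fold change was -0.00 and -0.02 in the same comparisons.

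*Rspo3*, the one enhancer among the listed genes, is on chr10:29452416-29535867 (GRCm38, minus strand, 5 exons). It stood at 28.8, 29.9 and 23.1 CPM in the controls, 19.9, 19.7 and 23.6 CPM in the *Fzd3* mutants and 27.1, 37.3 and 33.2 CPM in the *Celsr3* mutants. *Fzd3* mutant library 3 overlapped control library 3, and the *Celsr3* mutants were above all *Fzd3* mutants. The log2 fold change in *Fzd3* mutants was -0.36 (95% interval -0.64 to -0.08), which just missed the threshold (limma adjusted p = 0.0504). That call rested on the setting: of 19 alternatives 6 passed the threshold. The alternative without a filter is the same fit as the main one. Over all 19, adjusted p ran from 0.0167 in a limma fit to 0.171 in a test of each gene by itself, on CPM without moderation. Those that passed were the fits without control library 3 (0.0167), *Fzd3* mutant library 3 (0.0310) or *Celsr3* mutant libraries 1 (0.0290) or 2 (0.0416), the fit of only these genotypes (0.0361) and the filter at a mean of 5 CPM (0.0489). In *Celsr3* mutants the log2 fold change was 0.25 (95% interval -0.03 to 0.52, limma adjusted p = 0.947), and 0.23 without library 4.

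*Porcn* and *Wls*, the genes of Wnt secretion, were not called in any of the 3 comparisons. *Porcn*, on chrX:8193848-8206525 (GRCm38, minus strand), ranged from 41.7 to 43.4 CPM in the controls, 40 to 46.0 in the *Fzd3* mutants and 37.3 to 43.1 in the *Celsr3* mutants. Its 95% intervals were -0.14 to 0.16 and -0.20 to 0.10 on the log2 scale in *Fzd3* and *Celsr3* mutants. *Wls*, on chr3:159839672-159938664 (GRCm38, plus strand), stood at 10.1, 10.1 and 12.2 CPM in the controls, 16.3, 15.2 and 10.1 CPM in the *Fzd3* mutants and 10.9, 10 and 14.8 CPM in the *Celsr3* mutants. *Fzd3* mutant libraries 1 and 2 and *Celsr3* mutant library 4 were the highest, and *Fzd3* mutant library 3 was at the level of the lowest controls. The log2 fold change of *Wls* was 0.32 in *Fzd3* mutants (95% interval -0.07 to 0.71, limma adjusted p = 0.20). Without *Fzd3* mutant library 3 it was 0.53 and passed the threshold (limma adjusted p = 0.0258, range over all alternatives 0.0258 to 0.510), and the count of members called was then 5, with *Rspo3* the other addition, where 4279 of all 14670 genes were called in the same fit. Without *Fzd3* mutant library 1 the log2 fold change of *Wls* was 0.20 and without library 2 it was 0.24. In *Celsr3* mutants the log2 fold change of *Wls* was 0.12 (95% interval -0.27 to 0.51), and -0.04 without library 4, the library with the high meningeal markers.

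The mutants were also compared directly in the same fit. limma called 4 of the 7 listed genes, 2 higher and 2 lower in *Fzd3* than in *Celsr3* mutants, where 29.6% of all genes were called, 15.3% higher and 14.3% lower. *Dkk3* differed by 0.91 (limma adjusted p = 2.09e-05), *Sfrp2* by 0.62 (0.00126), *Sfrp1* by -0.49 (2.71e-04) and *Rspo3* by -0.61 (0.00458) on the log2 scale. Without *Celsr3* mutant library 4 these were 0.88, 0.61, -0.46 and -0.59, all still called. The *Rspo3* call was lost with a test of each gene by itself, on CPM and without moderation (adjusted p = 0.0907, range over alternatives 0.00204 to 0.0907). That test changed the scale and the moderation together. The libraries of the groups compared did not overlap for 3 of the 7 genes in *Fzd3* mutants against control (43.8% of all genes), 0 in *Celsr3* mutants against control (10.4%) and 4 between the mutants (44.9%).

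**Figure D2:**
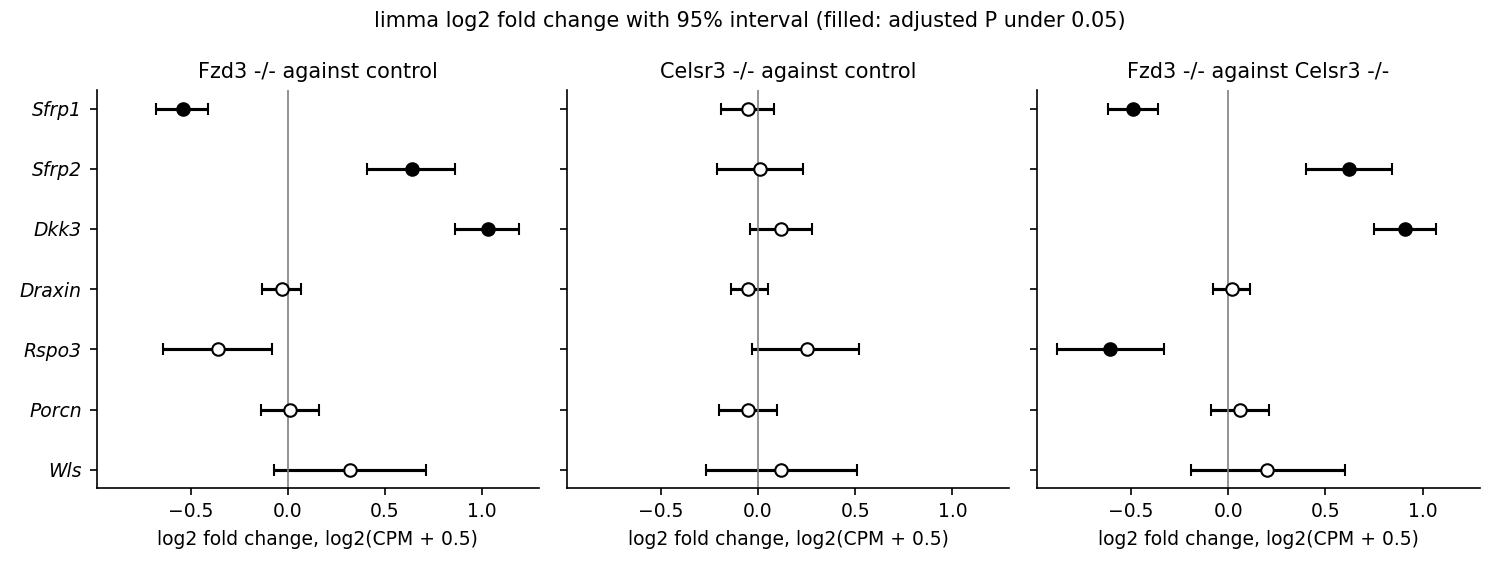
limma log2 fold change on the log2(CPM + 0.5) scale with 95% intervals for the 7 listed genes in the 3 comparisons, filled where the adjusted p was under 0.05. *Dkk3* at 1.03 and *Sfrp2* at 0.64 lie to the right and *Sfrp1* at -0.54 to the left in *Fzd3* mutants against control, and no point is filled for *Celsr3* mutants against control.

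To set levels of different genes side by side, CPM were divided by exon length in kb. In the controls the order was *Sfrp1* (40.5 ± 2.77 CPM per kb), *Draxin* (34.6 ± 1.26), *Porcn* (14.1 ± 0.328), *Rspo3* (8.82 ± 1.17), *Sfrp2* (7.79 ± 0.291), *Dkk3* (3.84 ± 0.277) and *Wls* (1.23 ± 0.135; SD, n = 3). *Rspo3* and *Sfrp2* overlapped and are not ordered beyond their spread, while the other neighbours were apart. The *Celsr3* mutants had the same order, with *Sfrp1* at 39.0 ± 1.84 CPM per kb. In the *Fzd3* mutants *Draxin* (33.8 ± 1.54 CPM per kb) stood above *Sfrp1* (27.8 ± 1.71), and *Sfrp2* (12.2 ± 0.339) and *Dkk3* (7.95 ± 0.167) stood above *Rspo3* (6.82 ± 0.716), with no neighbours overlapping. The annotation gives *Wls* 8.79 kb of exon against 3.56 kb in its longest transcript, so its level depends on the length used, 1.23 or 3.04 CPM per kb in the controls, but it was last in the controls either way.

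**Figure D3:**
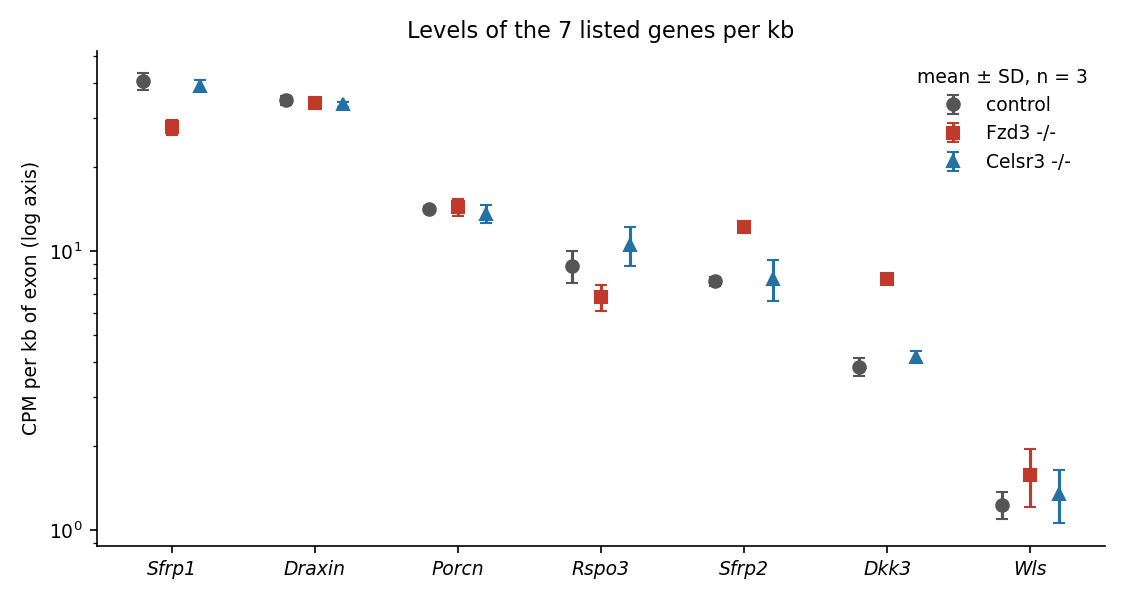
Level of each listed gene in CPM per kb of exon on a log axis, as mean ± SD (n = 3) per genotype, ordered by the controls. *Sfrp1* drops from 40.5 in the controls to 27.8 in the *Fzd3* mutants, below *Draxin*, while *Dkk3* goes from 3.84 to 7.95.

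The other genes of the pathway were described from lists. *Rspo2* and *Lgr5* had the largest log2 fold changes among the genes of these lists called in *Fzd3* mutants. Of 17 further Wnt modulators, secreted or at the membrane, 6 were in the table. limma called 2 higher and 0 lower in *Fzd3* mutants, where 29.8% of all genes were called. *Rspo2*, an R-spondin like *Rspo3*, stood at 3.29, 2.18 and 3.64 CPM in the controls, 11.4, 9.61 and 10.2 CPM in the *Fzd3* mutants and 4.89, 4.79 and 3.08 CPM in the *Celsr3* mutants. It was higher in every *Fzd3* mutant library than in any other and rose by 1.64 on the log2 scale (SE 0.190, limma adjusted p = 1.49e-04). *Apcdd1*, a membrane-bound Wnt inhibitor, rose by 0.28 (limma adjusted p = 0.0489). Of 5 R-spondin receptors and E3 ligases 3 were in the table and 2 rose, against the same 29.8%: the receptor genes *Lgr4* by 0.99 (limma adjusted p = 5.60e-05) and *Lgr5* by 1.44 (limma adjusted p = 4.89e-04), the latter from at most 0.426 CPM in the controls to at least 1.44 CPM. The ligase gene *Znrf3* had a log2 fold change of -0.07.

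All 11 genes for retromer, sorting nexin and p24 proteins, which return Wls from endosomes or carry it out of the endoplasmic reticulum, were in the table, and 1 was called in *Fzd3* mutants, *Vps29*, which rose by 0.17 (limma adjusted p = 0.0186), where 29.8% of all genes were called. Their median log2 fold change was 0.01. Of 15 genes for glypicans, syndecans and heparan sulfate enzymes, which hold Wnts and Sfrps at the cell surface, 13 were in the table, with 3 higher and 2 lower in *Fzd3* mutants, where 15% of all genes were higher and 14.8% lower. The sulfatase gene *Sulf2* rose by 1.23 (limma adjusted p = 0.00482) and the syndecan gene *Sdc3* by 0.20 (limma adjusted p = 0.0243). The glypican genes *Gpc4* and *Gpc6* fell by 0.67 (limma adjusted p = 0.00181) and by 0.64 (limma adjusted p = 2.45e-04).

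Of 19 Wnt ligands 7 were in the table, and 1 was higher and 1 lower in *Fzd3* mutants, where 29.8% of all genes were called, 15% higher and 14.8% lower. *Wnt3* rose by 0.87 (limma adjusted p = 0.00721) and *Wnt7b*, the most abundant ligand of the list in CPM, fell by 0.26 (limma adjusted p = 0.0402). Of 19 Wnt receptors and co-receptors 16 were in the table, with 2 higher and 4 lower, beside the same shares. *Fzd2* fell by 0.67 (limma adjusted p = 0.00130) and *Fzd8* by 0.63 (limma adjusted p = 0.00112), whereas *Fzd4* rose by 0.58 (limma adjusted p = 0.00905) and *Fzd5* by 0.47 (limma adjusted p = 0.0369). Of 14 target genes of beta-catenin 11 were in the table, with 3 higher and 2 lower, beside the same shares. *Nkd1* fell by 1.00 (limma adjusted p = 0.00283) and *Ccnd1* by 0.87 (limma adjusted p = 3.20e-04), *Nkd2* rose by 0.85 (limma adjusted p = 5.67e-04), and *Lgr5* and *Apcdd1*, also on this list, are given above. In *Celsr3* mutants against control limma called 0 genes of any of these 7 lists, where 0.307% of all genes were called. At an unadjusted p under 0.05 there were 4 genes of these lists in *Celsr3* mutants, *Rspo2*, *Wnt5a*, *Wnt5b* and *Tnfrsf19*, named after their values were seen, beside 800 of all 14670 genes.

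**Figure D4:**
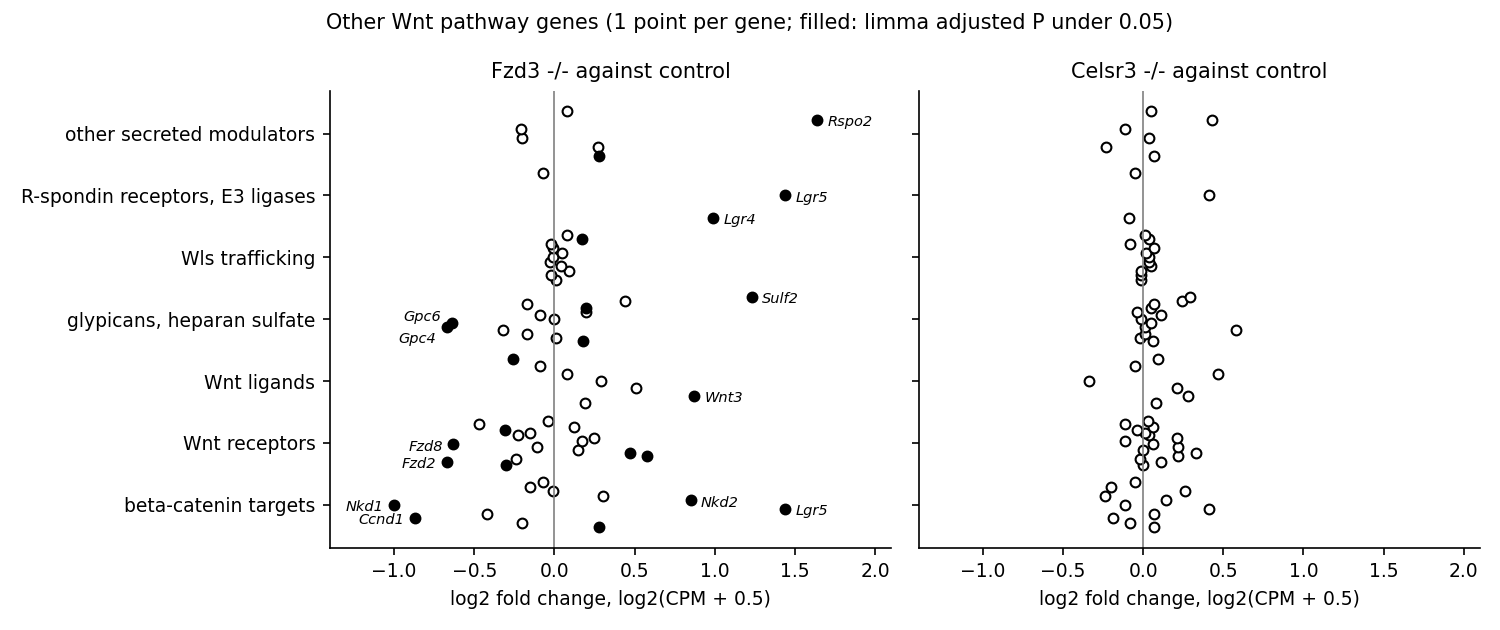
limma log2 fold change of each gene of 7 Wnt pathway lists in *Fzd3* mutants (left) and *Celsr3* mutants (right) against control, 1 point per gene, filled where the adjusted p was under 0.05. *Rspo2* at 1.64, *Lgr5* at 1.44 and *Sulf2* at 1.23 lie farthest to the right in *Fzd3* mutants, genes of Wls traffic lie near 0, and no point is filled in *Celsr3* mutants.

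Most progenitor markers fell in *Fzd3* mutants. Of 9 radial glia markers all were in the table and 7 fell, 0 rose, with a median log2 fold change of -0.62, against -0.00 over all genes, of which 14.8% were lower. Their sum was 1413, 1481 and 1426 CPM in the controls, 1075, 1135 and 1025 CPM in the *Fzd3* mutants and 1286, 1329 and 1407 CPM in the *Celsr3* mutants. *Vim* was the most abundant of them in the controls, at 483 CPM, and fell by 0.62 (limma adjusted p = 8.14e-05), whereas *Fabp7* was the most abundant in the *Fzd3* mutants, at 412 CPM, and was not called. *Pax6* fell by 0.70 (limma adjusted p = 1.20e-04) and *Gli3* by 0.86 (limma adjusted p = 5.41e-04). Of 5 basal progenitor markers all fell, with sums of 391, 415 and 346 CPM in the controls, 219.8, 239.6 and 275 CPM in the *Fzd3* mutants and 381, 434 and 440.1 CPM in the *Celsr3* mutants. The most abundant was *Eomes*, which fell by 0.67 (limma adjusted p = 7.64e-04). Both sums were lower in every *Fzd3* mutant library than in any other, as was *Sfrp1*, and the part of these markers in the changes of *Sfrp1*, *Sfrp2*, *Dkk3* and *Rspo3* was not tested.

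Counts of markers of vessel, glial and immune cells that rose in *Fzd3* mutants are given beside the 15% of all genes that were higher, and with so few genes per list they are a description. All 4 markers of oligodendrocyte precursors were in the table and 3 rose, with sums of 24.3, 21.6 and 32.6 CPM in the controls, 60.9, 55.1 and 31.5 CPM in the *Fzd3* mutants and 31.0, 21.6 and 26.7 CPM in the *Celsr3* mutants, and *Pdgfra* was the most abundant. Of 5 microglia markers 2 rose, with sums of 27.0, 30 and 29.1 CPM in the controls, 47.8, 44.7 and 33.3 CPM in the *Fzd3* mutants and 30.6, 32.4 and 38.8 CPM in the *Celsr3* mutants, and *Csf1r* was the most abundant. Of 6 endothelial and pericyte markers 2 rose, *Flt1* and *Cldn5*. The sums of all 6 were 105, 106 and 108 CPM in the controls, 140.4, 136 and 125 CPM in the *Fzd3* mutants and 117, 105 and 145 CPM in the *Celsr3* mutants. *Rgs5* was the most abundant and was not called. *Fzd3* mutant library 3 was the lowest of its genotype in all 3 sums, as it was for *Wls*, and *Celsr3* mutant library 4 was the highest of its genotype in vessel and immune markers, as it was for *Wls*. The part of these cell types in the values of *Wls* was not tested. Without *Fzd3* mutant library 3 the log2 fold changes of *Sfrp1*, *Sfrp2* and *Dkk3* in *Fzd3* mutants were -0.59, 0.66 and 1.04, all still called.

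Other marker lists were read in *Fzd3* mutants against control, where 29.8% of all genes were called. Of 11 ganglionic eminence and striatum markers 8 were in the table and 1 fell, of 5 Cajal-Retzius markers 0 were called by limma, of 6 cortical hem and hippocampal markers 3 were in the table and 1 rose, of 6 diencephalic markers 2 were in the table and both fell, and of 6 erythroid markers 1 fell. In the fit of all libraries limma called 0 of the 6 meningeal markers, and 1, *Col1a1*, had an unadjusted p under 0.05. Because *Celsr3* mutant library 4 widened their spread, they were also fitted without it, a setting chosen after seeing the data. In that fit *Dcn* rose by 1.08 (limma adjusted p = 6.69e-04), *Col1a1* by 1.67 (limma adjusted p = 0.0339) and *Cxcl12* by 0.33 (limma adjusted p = 0.0194) in *Fzd3* mutants against control. The other 3 were not called, with log2 fold changes of -0.40 for *Col3a1*, -0.01 for *Col1a2* and 0.15 for *Foxc1*. For *Col1a1* the libraries overlapped, with control library 2 at 5.35 CPM and *Fzd3* mutant library 3 at 4.85 CPM. Calls over all genes in that fit alone are not given here. The part of meningeal cells in the values of the listed genes was not tested.

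**Figure D5:**
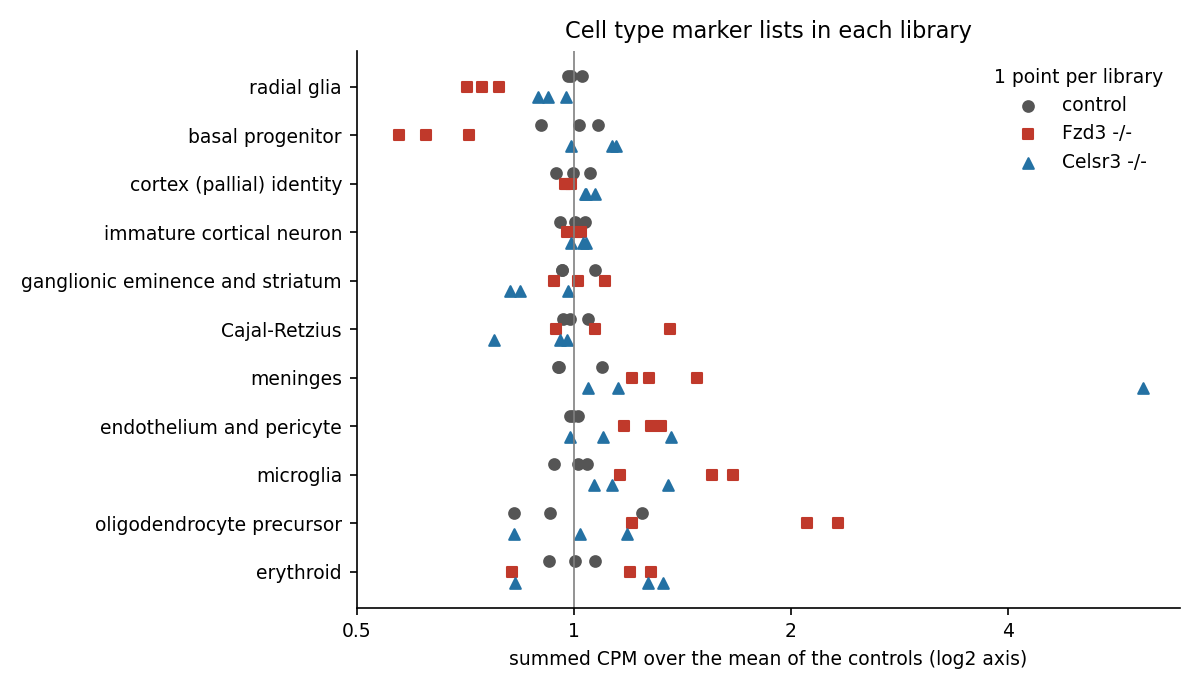
Summed CPM of each cell type marker list in each library, divided by the mean of the controls, on a log2 axis, 1 point per library. Radial glia and basal progenitor sums lie to the left in all *Fzd3* mutant libraries, and *Celsr3* mutant library 4 lies far to the right for meninges, at 219 CPM.

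Genes with the most similar profile were found by the root mean square difference over the 9 libraries of log2(CPM + 0.5), centred per gene, among genes averaging 1 CPM or more. For *Sfrp1* they were *Cbx2*, *H2afv* and *Diap2*, with differences of 0.043, 0.043 and 0.044, where the root mean square of *Sfrp1* itself was 0.254. For *Sfrp2* they were *Nceh1*, *C3ar1* and *Jdp2* (0.080, 0.082 and 0.086, against 0.318 for *Sfrp2*). For *Dkk3* they were *9330182L06Rik*, *Dlg2* and *Osbpl1a* (0.061, 0.076 and 0.083, against 0.461 for *Dkk3*). For *Rspo3* they were *Insm1*, *Qser1* and *Fras1* (0.085, 0.102 and 0.108, against 0.295 for *Rspo3*), and *Insm1*, a zinc finger gene, is one of the basal progenitor markers.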

How the data were processed

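The authors deposited CPM values for 14670 genes, produced by a company and scaled between libraries, with sums of 990141 to 1012199 CPM per library. The submitters' processing notes name FastQC, TopHat, Bowtie, Cufflinks and edgeR, and the builds GRCm38 and GRCh37, without their roles. Groups came from the labels. All 14670 genes passed a filter at an average of 0.5 CPM and were fitted with limma 3.58.1 in R 4.3.3 (lmFit, contrasts, eBayes with trend) on log2(CPM + 0.5) over all 9 libraries without a block, 2-sided, with Benjamini-Hochberg adjustment over all genes and a threshold of 0.05. Fold changes on this scale understate those of low genes. The fit was also run on simulated data with few changed genes and the same spread setting for every gene. These data differ from that, so it does not check the calls given here. Other computations used Python 3.11.15, numpy 2.4.6, pandas 2.3.3, scipy 1.17.1 and matplotlib 3.10.9. Exon lengths are the union of GENCODE exons (GRCm38), and promoters are from RefSeq (GRCm38.p6). Members and lists were chosen with earlier results of these data known.

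Named genes were the listed members, *Fzd3* and *Celsr3*, up to 4 genes per list with the largest change among those called, or up to 2 most abundant where none was called, 3 nearest profiles per called member, and marker genes as needed to give a whole list. The most abundant gene of a marker list was also named, outside that rule. *Gm26771* and *Mad2l2* were added for their position and *Znrf3*, *Col3a1*, *Col1a1*, *Dcn*, *Vim*, *Wnt5a*, *Wnt5b* and *Tnfrsf19* after their values were seen. Alternatives covered pseudocount, filter, scaling, libraries in the fit, replicate block, moderation, length and leaving out each library. Weights from recovered reads, and the meningeal markers without *Celsr3* mutant library 4, were added after seeing the data. The result for 1 marker gene, and the calls of the lists that hold it, are not reported here.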

Additional observations from a re-analysis of the deposited data

Results flagged for a closer look

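Effects that differed between the mutants stood out by the direct contrast of *Fzd3* with *Celsr3* mutants in the same limma fit. The difference was -0.49 on the log2 scale for *Sfrp1* (limma adjusted p = 2.71e-04), 0.62 for *Sfrp2* (limma adjusted p = 0.00126), 0.91 for *Dkk3* (limma adjusted p = 2.09e-05) and -0.61 for *Rspo3* (limma adjusted p = 0.00458). Of all genes, 29.6% were called in this contrast. In each case all 3 *Fzd3* mutant libraries lay on the same side of all 3 *Celsr3* mutant libraries, as they did for 44.9% of all genes. These genes were picked by their call in this contrast, so the separation is a description. For *Rspo3* the fitted changes against control had opposite signs, -0.36 in *Fzd3* mutants and 0.25 in *Celsr3* mutants. Libraries of both mutants overlapped the controls, and neither change was called. The direct *Rspo3* call was lost in a test of each gene by itself, on CPM without moderation (adjusted p = 0.0907).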

How the results depend on the processing

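The calls of *Sfrp1*, *Sfrp2* and *Dkk3* in *Fzd3* mutants against control and against *Celsr3* mutants held in each of 19 alternatives. The alternative without a filter repeats the main fit, since all 14670 genes pass the filter, so it is no check. In *Fzd3* mutants against control their log2 fold changes ranged from -0.59 to -0.49, 0.61 to 0.66 and 0.98 to 1.08. Leaving out each library in turn gave 3 to 5 members called in that comparison, 0 in *Celsr3* mutants against control and 4 between the mutants, where 2960 to 4314, 39 to 53 and 2973 to 4471 of all genes were called.

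Tests of each gene by itself called fewer genes over the table: 1793 in place of 4366, 6 in place of 45, and 1941 in place of 4346 in the direct comparison. With a replicate block the counts were 3629, 29 and 2101, and the members called stayed at 3, 0 and 4. The block was the library number, and number 4 occurs only in *Celsr3* mutants. Library 4 then carries no weight, and comparisons with *Celsr3* mutants rest on their libraries 1 and 2. The numbers were not taken to pair the samples, since the methods name no pairing. Correlations of deviations ran from -0.20 to 0.19 between libraries of the same number and from -0.16 to 0.19 between those of different numbers. Without dividing by length, *Draxin* was rank 1 and *Sfrp1* rank 2 in the controls, with overlapping ranges.

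Signs turned only in values that were not called. In *Celsr3* mutants *Wls* was -0.10 with the replicate block, which gives library 4 no weight. It was -0.04 without library 4 and 0.23 without library 2. *Sfrp2* was -0.02 without control library 3, -0.11 without *Celsr3* mutant library 1 and 0.12 without *Celsr3* mutant library 2. *Porcn* was 0.01 without *Celsr3* mutant library 1 and -0.09 without *Celsr3* mutant library 4. Without *Fzd3* mutant library 3, *Porcn* was -0.04 against control and *Draxin* -0.02 against *Celsr3* mutants, and without library 1 they were 0.06 and 0.04. The cause was not tested. The planned edgeR test on recovered reads was not run, since too few low values were present to establish the reads in each library by the rule set for it. limma voom on those reads, chosen after seeing the data, called 3, 0 and 4 members. Its calls over all genes are not given here, so these counts are not read against a background. The level of 3 reads was 0.0427 to 0.0752 CPM, below every value of the 7 genes.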
